A study of Homo sapiens with 9 samples.

Results

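The SNORD116 and SNORD115 clusters are rows of C/D box small nucleolar RNA (snoRNA) genes in the imprinted 15q11 region of chromosome 15, the region lost or silenced in Prader-Willi syndrome. The members described here are all probe sets whose gene symbol starts with SNORD116- or SNORD115-, with the neighbouring genes IPW, SNRPN and SNURF. The arrays measured 46 of these genes among 23931: 19 of the 30 SNORD116 copies in RefSeq, 25 of the 48 SNORD115 copies, IPW and SNRPN. No probe set carried the symbol SNURF. The rule uses gene names alone, but the group was put forward after its levels in these 9 arrays had been seen, so the members count as chosen by their measured levels per group, and levels and fold changes are given as a description.

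Expression was measured in H2009, a human lung adenocarcinoma line, in 3 groups of 3 arrays. All groups carry the CRISPR activation system, a Cas9 without endonuclease activity (dCas9) fused to the activators VP64, p65 and Rta, and grew under blasticidin. Cells of the first group received the guide sgRNA-A and those of the second sgRNA-B, both directing the activator to microRNAs of 14q32, an imprinted locus on another chromosome; control cells received the empty guide vector. The arrays of a group come from the same cell clone, so a guide and its clone cannot be told apart, and the SDs and p-values hold no spread between clones.

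C/D box snoRNAs are short RNAs cut from introns; most guide the methylation of ribosomal RNA, held in a particle with the methyltransferase fibrillarin. SNORD116 and SNORD115 lack a known ribosomal target. Both rows lie in introns of SNHG14, a long transcript made from the paternal chromosome that also holds SNURF and SNRPN, and in the mouse and human brain it extends through SNORD115 to run antisense to UBE3A. SNORD115 is known mainly from neurons, where it can pair with the serotonin receptor transcript HTR2C, whereas SNORD116 is found in more tissues and its loss is linked to Prader-Willi syndrome. SNRPN encodes the Sm protein SmN and SNURF a small protein from the same messenger RNA, and IPW is a non-coding RNA that lies between the 2 snoRNA rows.

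RefSeq gives windows of 300 bases around the start for 2 of the 46 members and for none of the snoRNAs. They are shown because the first is the start that SNRPN shares with SNURF, upstream of the snoRNA rows in the host transcript, while IPW has its own start between the rows. CpG dinucleotides, the letters CG on either strand and the sites of DNA methylation, are in capitals. Both windows are on the plus strand of GRCh38.p14.
SNRPN and SNURF, chr15:24954737-24955036: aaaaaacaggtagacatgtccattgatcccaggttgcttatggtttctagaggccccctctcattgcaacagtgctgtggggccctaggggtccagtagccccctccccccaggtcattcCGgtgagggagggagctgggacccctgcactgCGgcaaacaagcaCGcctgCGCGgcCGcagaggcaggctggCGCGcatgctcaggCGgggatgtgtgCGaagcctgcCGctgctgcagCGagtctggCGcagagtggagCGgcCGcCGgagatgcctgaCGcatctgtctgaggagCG
IPW, chr15:25116295-25116594: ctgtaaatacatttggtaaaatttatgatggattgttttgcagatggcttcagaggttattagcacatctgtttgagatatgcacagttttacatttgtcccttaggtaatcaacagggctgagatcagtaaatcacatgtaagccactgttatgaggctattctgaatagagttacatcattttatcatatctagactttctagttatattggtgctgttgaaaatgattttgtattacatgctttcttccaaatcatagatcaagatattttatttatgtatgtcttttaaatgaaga
The shared SNRPN and SNURF window held 18 CpG sites and 64.3% G or C. Of all 34943 RefSeq start windows of this length, 44.3% held at least as many, and the median was 14. The IPW window held 0 CpG sites and 31.3% G or C. RefSeq lists 3 further starts for SNRPN, which are not shown.

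The SNORD116 copies ranged from dim to bright, while the SNORD115 copies were dim. Values are log2 levels per probe set, and those of 375 olfactory receptor genes, taken as silent in these cells, served as a gauge: 95% of them had a mean below 4.49, called the silent level here. Of the 19 SNORD116 copies 13 lay above it, against 1 of 25 SNORD115 copies, 122 of 178 other C/D box snoRNAs (68.5%) and 56.7% of all genes. Those 178 include the 41 snoRNAs of the imprinted 14q32 locus, of which 0 lay above it, so the 122 all come from the rest. Brightness of different probe sets also depends on how well their probes bind, so an order of levels is an order of brightness, not of RNA abundance. Copies of these rows resemble each other in sequence, and how far the probes keep them apart was not tested.

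**Figure D1:**
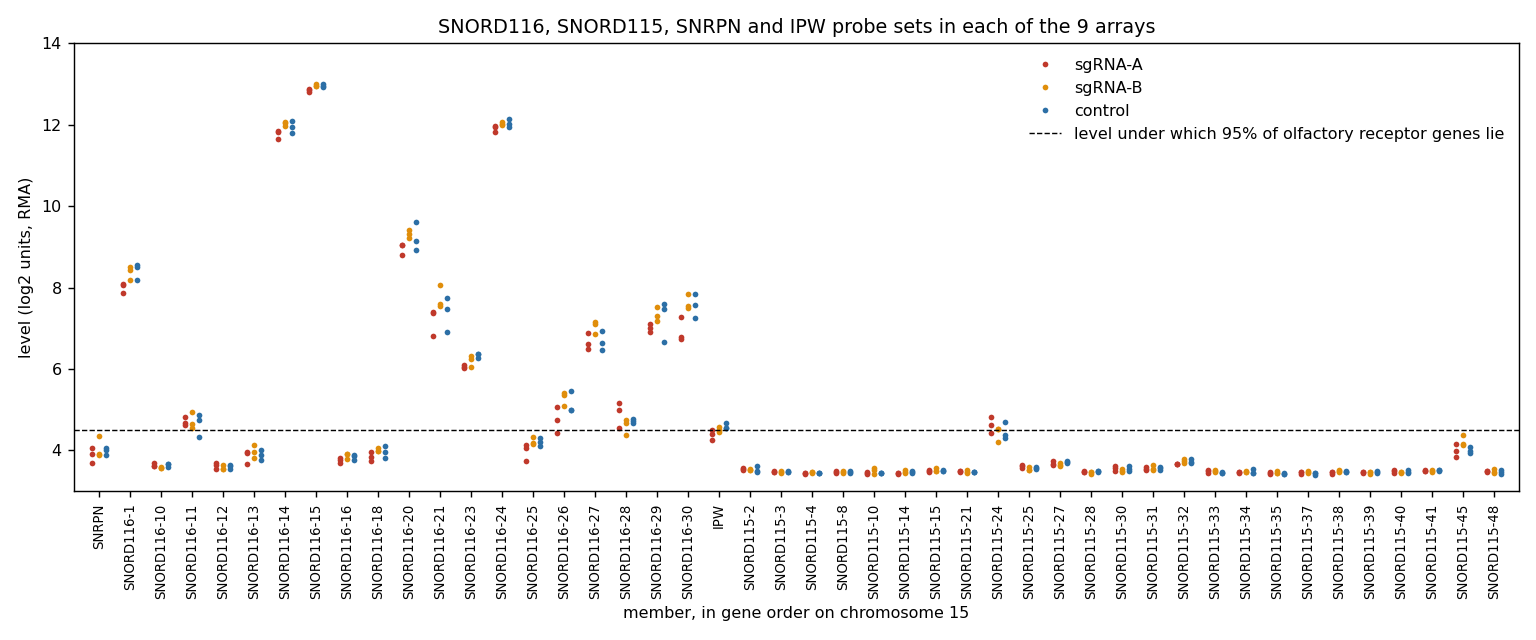
Level in log2 units (y axis) of the 46 members in the order of their genes (x axis), with 3 points each for sgRNA-A, sgRNA-B and control arrays; the dashed line is the silent level of 4.49. SNORD116-15, SNORD116-24 and SNORD116-14 reach 11.91 to 12.92 on average, while all SNORD115 copies stay at or near the dashed line or below it.

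SNORD116-15 was the brightest member, at 12.80, 12.86 and 12.87 log2 units in the sgRNA-A arrays, 12.99, 12.96 and 12.94 in the sgRNA-B arrays and 12.96, 13 and 12.92 in the control arrays. Its mean of 12.92 was above that of 99.8% of all genes. All sgRNA-A values lay below all values of the other groups, by little. SNORD116-24 measured 11.82, 11.98 and 11.95 in sgRNA-A cells, 12.03, 12.06 and 12.00 in sgRNA-B cells and 12.01, 12.15 and 11.94 in control cells. SNORD116-14 measured 11.84, 11.82 and 11.66 in sgRNA-A cells, 12.03, 12.08 and 11.97 in sgRNA-B cells and 11.95, 12.09 and 11.79 in control cells. For both, sgRNA-A arrays overlapped the control arrays but not the sgRNA-B arrays. SNORD116-20 followed at 9.05, 9.04 and 8.79 in sgRNA-A cells, 9.31, 9.42 and 9.21 in sgRNA-B cells and 9.15, 9.61 and 8.93 in control cells, the widest range being that of the control arrays.

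Bright and dim copies were interspersed along the row. Among copies 10 to 24 the 12 measured members ran from 3.60 to 12.92, with a median of 5.44 and 7 above the silent level. Among copies 25 to 30 the 6 measured members ran from 4.14 to 7.37 (median 5.93), and 5 lay above it. Only SNORD116-1, with a mean of 8.26, was measured among copies 1 to 9. The 6 copies at or below the silent level were SNORD116-10, SNORD116-12, SNORD116-13, SNORD116-16, SNORD116-18 and SNORD116-25. Closest to it from above stood SNORD116-11 at 4.69 and SNORD116-28 at 4.74, and from below SNORD116-25 at 4.14.

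The SNORD115 row was dim in every group. Leaving aside SNORD115-24 and SNORD115-45, the means of the other 23 copies ran from 3.44 to 3.71, and no single value in any array went above 3.79. Of the 25 copies, 18 had a mean below 3.53, the level under which 5% of the olfactory receptor genes lay. SNORD115-24 measured 4.42, 4.62 and 4.82 in sgRNA-A cells, 4.52, 4.53 and 4.20 in sgRNA-B cells and 4.36, 4.69 and 4.29 in control cells, which straddles the silent level in each group. SNORD115-45 measured 4.15, 3.99 and 3.85 in sgRNA-A cells, 4.39, 4.16 and 4.12 in sgRNA-B cells and 4.08, 3.97 and 3.92 in control cells, below the silent level in all arrays. SNORD115-32, next in brightness, measured 3.65, 3.65 and 3.65 in sgRNA-A cells, 3.69, 3.79 and 3.73 in sgRNA-B cells and 3.70, 3.71 and 3.79 in control cells. SNORD115-27 measured 3.64, 3.73 and 3.67 in sgRNA-A cells, 3.62, 3.68 and 3.64 in sgRNA-B cells and 3.71, 3.74 and 3.68 in control cells. Both lay below the silent level in every array, with mean SNORD115-32 lowest in sgRNA-A cells and mean SNORD115-27 lowest in sgRNA-B cells, by under 0.1 log2 units.

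The protein and long RNA genes among the members were dim as well. SNRPN measured 4.05, 3.90 and 3.69 in sgRNA-A cells, 3.91, 3.89 and 4.35 in sgRNA-B cells and 4.07, 3.89 and 4.01 in control cells. All 9 values lay below the silent level, although bright snoRNA copies are annotated inside the same host transcript. IPW measured 4.49, 4.40 and 4.24 in sgRNA-A cells, 4.56, 4.44 and 4.49 in sgRNA-B cells and 4.55, 4.66 and 4.55 in control cells. Its values stood around the silent level, and the sgRNA-A arrays lay below the control arrays by a mean of 0.21 (log2 fold change -0.21, SE 0.09).

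With sgRNA-A, SNORD116 copies were mostly lower than in control cells, by amounts that no single copy carried past the threshold. Of the 19 copies 16 had a fold change below 0, against 48.3% of all genes, and their median log2 fold change was -0.12 (0.0036 for all genes). In these bulk cultures fewer cells with the RNA and less RNA per cell cannot be told apart. None of the 46 members changed in limma at an adjusted p below 0.05, a threshold that 2.18% of all genes passed (0.957% higher and 1.22% lower). At an unadjusted p below 0.05 limma counted 9 members, all lower with sgRNA-A, 8 of them SNORD116 copies and the other IPW. These 9 are 19.6% of the members, and 13.4% of all genes passed the same unadjusted threshold (6.68% higher and 6.74% lower). By row they were 8 of 19 SNORD116 copies and 0 of 25 SNORD115 copies. The sgRNA-A arrays lay below all control arrays for 3 SNORD116 copies, 15.8% of them, and this held for 8.78% of all genes. They lay above all control arrays for 0 copies, against 8.98% of all genes. The members were put forward after their levels had been seen, and SNORD116 copies varied together within groups. Counts of copies, here and in the comparisons below, are therefore a description and not independent support.

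SNORD116-30 differed most. It measured 7.27, 6.79 and 6.73 in sgRNA-A cells, 7.50, 7.84 and 7.55 in sgRNA-B cells and 7.57, 7.83 and 7.24 in control cells. The sgRNA-A mean was 6.93 ± 0.30, against 7.55 ± 0.29 in control cells (SD, n = 3), a log2 fold change of -0.62 (SE 0.16). Replicate 1 of sgRNA-A reached just above the lowest control array. SNORD116-1, the first copy of the row, measured 8.07, 8.09 and 7.86 in sgRNA-A cells, 8.44, 8.50 and 8.19 in sgRNA-B cells and 8.50, 8.55 and 8.18 in control cells. Its sgRNA-A arrays lay below every other array, with a log2 fold change of -0.41 (SE 0.11) against control. SNORD116-26 measured 4.75, 5.08 and 4.41 in sgRNA-A cells, 5.36, 5.10 and 5.40 in sgRNA-B cells and 5.00, 5.47 and 5.00 in control cells (log2 fold change -0.41, SE 0.17, against control), and here sgRNA-A and control arrays overlapped.

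SNORD116-23 was lower in all 3 sgRNA-A arrays, at 6.03, 6.10 and 6.05, than in the control arrays, at 6.36, 6.37 and 6.26 (log2 fold change -0.27, SE 0.10). Its sgRNA-B arrays, at 6.25, 6.32 and 6.06, lay between or among them. At the bright end the differences were small, with -0.12 (SE 0.03) for SNORD116-15, -0.12 (SE 0.05) for SNORD116-24 and -0.18 (SE 0.07) for SNORD116-14. The brightest of all genes averaged 13.78, and whether differences narrow near the top of the range was not tested. Above 0, SNORD116-28 had the largest value, at 5.00, 4.55 and 5.17 in sgRNA-A cells, 4.37, 4.74 and 4.68 in sgRNA-B cells and 4.68, 4.72 and 4.77 in control cells (0.19 against control, SE 0.15). SNORD115-24 (0.17, SE 0.13) and SNORD116-11 (0.07, SE 0.14) came next, and SNORD116-11 measured 4.63, 4.82 and 4.67 in sgRNA-A cells, 4.95, 4.65 and 4.54 in sgRNA-B cells and 4.87, 4.73 and 4.32 in control cells. In all 3 the sgRNA-A and control ranges overlapped. The SNORD115 row had a median log2 fold change of 0.00064, with 11 of 25 copies below 0.

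**Figure D2:**
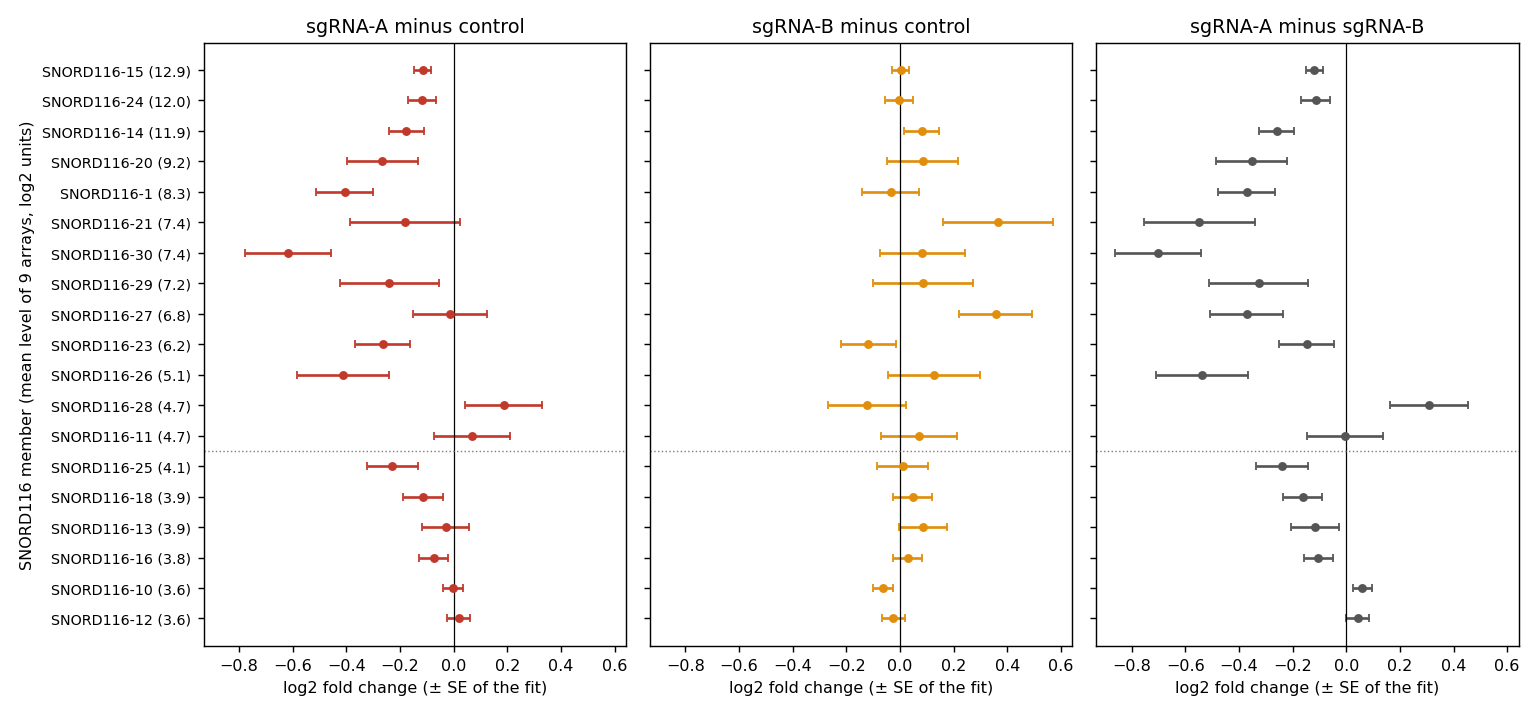
Log2 fold change with the SE of the fit (x axes) of the 19 SNORD116 copies (y axis, from the brightest at the top; mean level of 9 arrays in brackets) for sgRNA-A minus control, sgRNA-B minus control and sgRNA-A minus sgRNA-B. Copies under the dotted line lay at or below the silent level; 16 of 19 points are below 0 in the left and right panels and 6 of 19 in the middle one.

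With sgRNA-B, SNORD116 copies stood close to control. The median log2 fold change was 0.048, 6 of 19 copies were below 0 against 51.6% of all genes, and for 0 copies did all sgRNA-B arrays lie below (10.5% of all genes) or above (9.67%) all control arrays. None of the 46 members changed in limma, where 3.07% of all genes did (1.56% higher and 1.51% lower), and 2 had an unadjusted p below 0.05, both higher with sgRNA-B. These are 4.35% of the members, where 14.7% of all genes passed unadjusted (7.42% higher and 7.32% lower). By row they were 1 of 19 SNORD116 copies and 1 of 25 SNORD115 copies. SNORD116-21 had the largest fold change, at 7.60, 8.07 and 7.55 with sgRNA-B and 7.46, 7.75 and 6.90 in control cells (log2 fold change 0.37, SE 0.21). SNORD116-27 measured 7.15, 7.12 and 6.85 with sgRNA-B and 6.64, 6.94 and 6.47 in control cells (0.36, SE 0.14). In both, the ranges overlapped, and the sgRNA-A arrays of SNORD116-27, at 6.62, 6.89 and 6.50, lay within the control range. SNORD115-45 was higher in all 3 sgRNA-B arrays than in control arrays (0.23, SE 0.09), though at levels below the silent one. The largest values below 0 were -0.12 for SNORD116-28 (SE 0.15) and SNORD116-23 (SE 0.10), and -0.09 for IPW (SE 0.09). The SNORD115 median was 0.0034. Both guides were set against the same control arrays.

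Between the guides, SNORD116 was lower with sgRNA-A for 16 of 19 copies, against 47.9% of all genes, with a median log2 difference of -0.16 (0.0045 for all genes). For 11 copies every sgRNA-A array lay below every sgRNA-B array, which held for 7.34% of all genes, and for 1 copy, SNORD116-10, every sgRNA-A array lay above (8.56% of all genes). No member passed the adjusted threshold in limma, which 0.104% of all genes did (0.0418% higher and 0.0627% lower with sgRNA-A), and 11 had an unadjusted p below 0.05, all lower with sgRNA-A. These are 23.9% of the members, where 10.5% of all genes passed unadjusted (5.25% higher and 5.24% lower). By row they were 10 of 19 SNORD116 copies and 1 of 25 SNORD115 copies. SNORD116-30 again led, at 6.93 ± 0.30 with sgRNA-A and 7.63 ± 0.18 with sgRNA-B (SD, n = 3; log2 difference -0.70, SE 0.16). SNORD116-21 followed with 7.40, 7.36 and 6.81 against 7.60, 8.07 and 7.55 (-0.55, SE 0.21), and SNORD116-26 with 4.75 ± 0.33 against 5.28 ± 0.16 (-0.54, SE 0.17). The largest values above 0 were those of SNORD116-28 (0.31, SE 0.15), SNORD115-24 (0.20, SE 0.13) and SNORD115-25 (0.07, SE 0.03). SNORD115-25 measured 3.57, 3.63 and 3.61 with sgRNA-A against 3.51, 3.53 and 3.58 with sgRNA-B, overlapping and below the silent level, and the SNORD115 median was -0.0022.

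The difference between the guides was largest for copies of middle brightness. For the 6 copies with means between 6 and 9 its median was -0.37, and all 6 were lower with sgRNA-A. For the 4 copies over 9 the median was -0.19, again with all 4 lower. Whether differences narrow near the top of the range was not tested. The 3 copies between the silent level and 6 had a median of -0.0049, with SNORD116-26 and SNORD116-28 far apart, and the 6 at or below the silent level one of -0.11.

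Other C/D box snoRNAs moved in the same arrays. Of the 122 above the silent level, 98 were lower with sgRNA-A than with sgRNA-B (median log2 difference -0.13), and for 40 of them, 32.8%, all sgRNA-A arrays lay below all sgRNA-B arrays. Against control the sgRNA-A median of these snoRNAs was -0.018 and the sgRNA-B median 0.10. For the 13 SNORD116 copies above the silent level the sgRNA-A median against control was -0.18, the sgRNA-B median 0.081 and the median between the guides -0.33. With each array centred on these 122 snoRNAs, an alternative chosen after the data were seen, those 3 medians of SNORD116 became -0.16, -0.021 and -0.21. With each array centred on the median level of all 178 other C/D box snoRNAs they became -0.12, -0.054 and -0.13. Over all 19 copies the median between the guides then turned to 0.033, against -0.16 without that centring. That median level ran from 6.76 in sgRNA-A replicate 3 to 7.35 in sgRNA-B replicate 1. By contrast, the median difference of the same 178 from their gene means ran from -0.055 to 0.058 over the arrays. This centring left 12, 16 and 4 genes called in the 3 comparisons, against 522, 735 and 25. The part of the other C/D box snoRNAs in the SNORD116 difference was otherwise not tested.

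**Figure D3:**
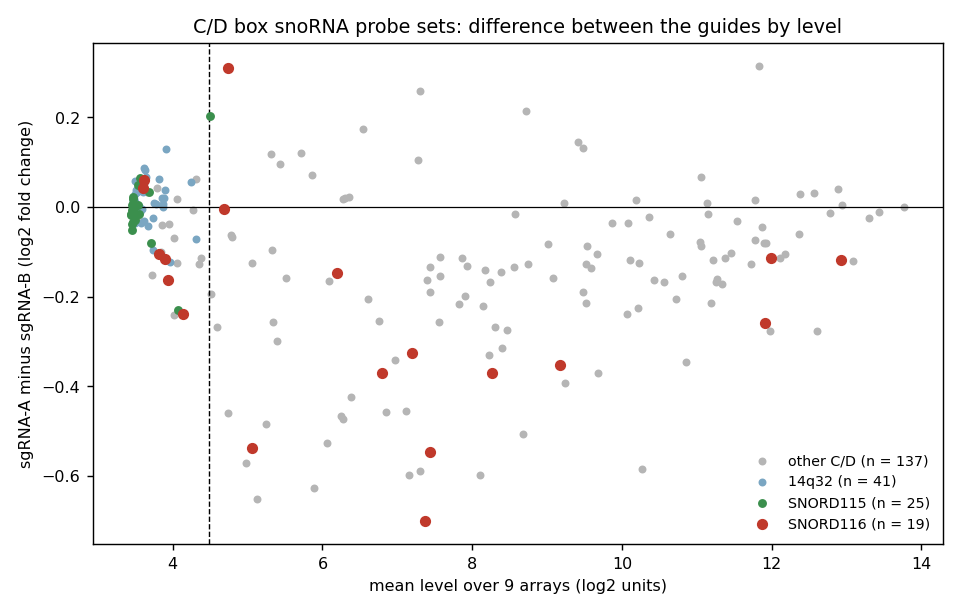
Log2 difference sgRNA-A minus sgRNA-B (y axis) against the mean level over 9 arrays in log2 units (x axis), 1 point per C/D box snoRNA probe set; the dashed line is the silent level. SNORD116 points with means from 5 to 9 lie between -0.70 and -0.15, among many other C/D box snoRNAs that also lie below 0, while SNORD115 and the 14q32 snoRNAs sit at the dim left edge.

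Copies of SNORD116 also varied together within groups. Over the 13 copies above the silent level, the median within-group SD was 0.21, against 0.16 for the 122 other C/D box snoRNAs and 0.098 for all genes above the silent level. The sets were not matched on level, with a median of 9.05 for the 122, 7.64 for those genes and 7.37 for the 13 copies. After group means were removed, the median correlation between pairs of these copies over the 9 arrays was 0.53, and 85.9% of the 78 pairs were above 0; for the other C/D box snoRNAs it was 0.20. The points share array, labelling and any cross-binding of like sequences. Replicate 3 was the lowest of its group for 8 of the 13 copies with sgRNA-A, 9 with sgRNA-B and 11 in control cells, and control replicate 2 was the highest control array for 11. SNORD116-29 had the widest control range, with sgRNA-A arrays from 6.92 to 7.09 against 7.48, 7.59 and 6.66 in control cells.

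Single arrays moved the comparisons with control. Without control replicate 3, the sgRNA-A median of the 13 copies was -0.30 and the sgRNA-B median -0.066, and 3 copies (SNORD116-1, SNORD116-29 and SNORD116-30) lay past limma's adjusted threshold with sgRNA-A, against 0 with all arrays, given here as a description only. Without control replicate 2 the sgRNA-A median was -0.076 and the sgRNA-B median 0.15. The sgRNA-B median was also 0.049 without control replicate 1, -0.0046 without sgRNA-B replicate 1 and 0.031 without sgRNA-B replicate 2, so its sign depended on the arrays kept. Without sgRNA-A replicate 1 SNORD116-30 alone lay past it. Replicate 3 of sgRNA-A was lowest of all 9 arrays for 6 of the 13 copies, and without it the sgRNA-A median was -0.14. Between the guides the median stayed between -0.35 and -0.26 with any array left out.

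**Figure D4:**
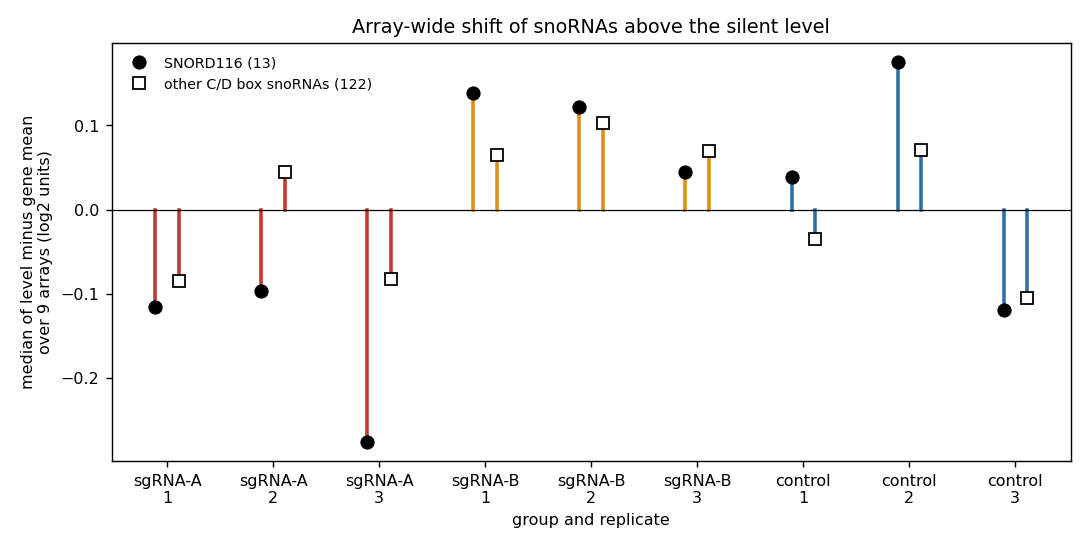
Median over snoRNAs above the silent level of each array's level minus the gene's mean over 9 arrays (y axis, log2 units), per array (x axis), for 13 SNORD116 copies (filled circles) and 122 other C/D box snoRNAs (open squares); stems carry the group colour. SNORD116 lies at -0.12, -0.096 and -0.28 in the sgRNA-A arrays, above 0 in the sgRNA-B arrays and at 0.039, 0.18 and -0.12 in the control arrays, and the other snoRNAs share the sign in 7 of 9 arrays.

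Of the other genes of 15q11-q13, 19 of a list of 29 were measured and 9 lay above the silent level. With sgRNA-B 1 fell and 18 did not pass the test, where 3.07% of all genes were called. With sgRNA-A and between the guides 0 passed in limma, against 2.18% and 0.104% of all genes. An unadjusted p under 0.05 was found for 1 with sgRNA-A, 3 with sgRNA-B and 4 between the guides, against 13.4%, 14.7% and 10.5% of all genes. The gene that fell was PWAR5, a non-coding RNA gene that lies between SNURF and SNORD116-1. It measured 8.72, 8.71 and 8.64 in sgRNA-A cells, 8.56, 8.49 and 8.60 in sgRNA-B cells and 8.81, 9.02 and 8.95 in control cells. All arrays of both guides lay below the control arrays, by 0.23 in the mean of sgRNA-A (log2 fold change -0.23, SE 0.06; limma's adjusted p = 0.0850) and by 0.37 in that of sgRNA-B (-0.37, SE 0.06; limma's adjusted p = 0.00606). The sgRNA-B call held in 19 of 20 alternatives, ending (limma's adjusted p = 0.850) with arrays centred on the median level of other C/D box snoRNAs. With that centring 16 of all genes were called with sgRNA-B, against 735 without it. The order of the guides was the opposite of that of most SNORD116 copies, lowest with sgRNA-B. Between the guides PWAR5 differed by 0.14 (sgRNA-A minus sgRNA-B, SE 0.06), which did not pass (limma's adjusted p = 0.468). PWARSN, next to it, measured 6.45, 6.35 and 6.24 in sgRNA-A cells, 6.04, 6.21 and 5.99 in sgRNA-B cells and 6.30, 6.52 and 6.32 in control cells. Its sgRNA-B arrays were all lowest (-0.30, SE 0.11; adjusted p = 0.188, limma).

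UBE3A, the ubiquitin ligase gene at the far end of the locus, averaged 6.68 ± 0.15 with sgRNA-A, 6.76 ± 0.04 with sgRNA-B and 6.85 ± 0.01 in control cells (SD, n = 3), and did not pass the test. The paternally expressed genes upstream of SNRPN were dim: over 9 arrays MAGEL2 averaged 4.09, NDN 3.79, MKRN3 3.93 and NPAP1 4.31, all below the silent level. So were PWAR1 (4.23), PWAR4 (3.90), PWRN2 (3.59), the receptor subunits GABRA5 (4.18) and GABRG3 (3.73) and the pigment gene OCA2 (3.80). The remaining genes measured were ATP10A (4.80) and, outside the imprinted interval, CYFIP1 (9.09), NIPA1 (8.84), NIPA2 (8.64), HERC2 (8.21) and TUBGCP5 (8.05), and none passed the test.

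Genes of the C/D box particle and its assembly were measured for 13 of 14 listed, all above the silent level. RUVBL2, an ATPase of the assembly machinery, rose with both guides. Its mean was 11.13 in sgRNA-A cells and 11.20 in sgRNA-B cells against 10.95 in control cells (log2 fold changes 0.18 and 0.25, SE 0.04, with limma's adjusted p = 0.0472 and 0.00588). The other 12 did not pass the test. That is 1 of 13 called with each guide, where 2.18% (sgRNA-A) and 3.07% (sgRNA-B) of all genes were called. The RUVBL2 calls held in 8 and 18 of 20 alternatives. Over these, limma's adjusted p ran from 0.0324 to 0.9999 with sgRNA-A and from 0.00383 to 0.850 with sgRNA-B. The alternatives include centring on the median level of other C/D box snoRNAs, which left 12 and 16 of all genes called. Of 17 measured genes of the Sm core and the SMN complex, partners of SmN, 0 passed in limma with either guide, with 1 at an unadjusted p below 0.05 for each. Of 16 regulators of silencing and imprints 0 passed with either guide. At an unadjusted p below 0.05 stood 2 in the sgRNA-A comparison and 5 in that of sgRNA-B, all of them lower than in control cells. Fold changes were below 0 for 9 of the 16 with sgRNA-A and 13 with sgRNA-B. TET3 had the smallest adjusted p among them, 0.111 with sgRNA-A and 0.0566 with sgRNA-B (limma). In these comparisons 13.4% and 14.7% of all genes had an unadjusted p below 0.05 (6.74% and 7.32% lower), and 48.3% and 51.6% had a fold change below 0.

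Genes reported as partners or targets of SNORD115 or SNORD116 were measured for 10 of 11. PBRM1, a chromatin remodelling subunit whose splicing has been linked to SNORD115, fell with sgRNA-A to 9.85, against 10.05 in control cells (log2 fold change -0.20, SE 0.04; limma's adjusted p = 0.0339). With sgRNA-B it averaged 9.90. The sgRNA-A call held in 8 of 20 alternatives, over which limma's adjusted p ran from 0.0221 to 0.9999. The highest came with arrays centred on the median level of other C/D box snoRNAs, which left 12 of all genes called with sgRNA-A. HTR2C averaged 3.61 with sgRNA-A, 3.68 with sgRNA-B and 3.68 in control cells, below the silent level. None of the others passed the test. That is 1 of 10 called with sgRNA-A, where 2.18% of all genes were called.

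As to the cells themselves, 7 of 9 epithelial and lung adenocarcinoma markers lay above the silent level, EPCAM at 12.88 and NKX2-1 at 9.45. Of 8 neuronal markers 2 did, SYT1 at 9.31 and RBFOX3 at 4.62, and SNAP25, STMN2 and ELAVL4 were below it. The summed neuronal level on the log2 scale ran from 9.53 to 9.54 with sgRNA-A, from 9.49 to 9.57 with sgRNA-B and from 9.63 to 9.75 in control cells, lower in all arrays of both guides than in control arrays. SYT1 carried most of that sum, at 9.25 in sgRNA-A cells, 9.26 in sgRNA-B cells and 9.42 in control cells, while 4 of the 8 markers had a higher mean in sgRNA-A cells than in control cells and 3 a higher mean in sgRNA-B cells. The summed epithelial level ran from 14.82 to 14.83 for sgRNA-A and from 14.84 to 14.85 for sgRNA-B, against 14.85 to 14.91 in control cells. It was lower in all arrays of both guides, but the highest sgRNA-B sum, 14.8468, nearly reached the lowest control sum, 14.8477. Of the 9 epithelial markers, 3 had a higher mean in sgRNA-A cells than in control cells and 4 a higher mean in sgRNA-B cells. The part of these levels in the results was not tested. Arrays of a group correlated at 0.997 or more over all genes, and sgRNA-A replicate 3 lay farthest from its group. The targeted 14q32 locus holds C/D box snoRNA genes too, and of its 41 probe sets 0 lay above the silent level. Of these, 0 passed the test in limma with either guide, with 1 at an unadjusted p below 0.05 for each.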

How the data were processed

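RNA of 9 H2009 cultures was measured on Affymetrix arrays after biotin labelling, as the labels' protocols state. The deposited values are log2 levels per probe set made by the authors with RMA, per the submitters' processing notes; its version and the probe definition are not given in the sources used here. Every array had a median of 4.90, so shifts of all genes together cannot be seen. Groups and replicate numbers come from the titles.

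Of 24733 probe sets, 799 had no symbol and 0 several; for repeated symbols the probe set of highest mean was kept, leaving 23931 genes, all tested. Gene order comes from RefSeq. The fit was limma 3.58.1 (R 4.3.3): 3 group means over 9 arrays, eBayes(trend=TRUE) with 6 residual and 7.27 prior degrees of freedom, Benjamini-Hochberg adjustment over 23931 genes and a threshold of 0.05. Simulated data had 200 genes changed in sgRNA-A against control among 23931, over 5 simulations. Of changes of 0.5 (log2) 73.2% were recovered and of changes of 1 98.4%, with 5.54% false calls. These shares are not for the members alone. The median within-group SD was 0.21 for SNORD116 copies above the silent level, against 0.085 for all genes. The shares therefore do not give the chance of calling a change in those copies, which was not tested.

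Members and lists were chosen with earlier results of these data known. Named in full were IPW, SNRPN, SNURF, the 4 brightest copies of each row, the 3 largest rises and falls per comparison and any member called; SNORD116-29 was added after its values were seen. From the lists, all 15q11-q13 genes and up to 4 per list were eligible. Same-numbered arrays correlated at -0.15 to 0.14 after group means were removed, with 1 of 9 pairs over 0.1, so numbers were not taken as pairs. Alternatives were leaving out arrays, a replicate block, other variance models, array weights, the compared groups alone, a filter on dim genes, other centrings and all probe sets. The number of arrays limits the precision.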

Additional observations from a re-analysis of the deposited data

How the results depend on the processing

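Medians below are log2 fold changes. Each centring takes 1 value from all genes of an array, so within a comparison it shifts every fold change by the same amount, those of SNORD115 included. The cause of the other shifts was not tested. No member was called with sgRNA-B against control under any alternative run. With sgRNA-A against control 2 were called with the replicate block (SNORD116-1 and SNORD116-30), 2 when arrays were centred on other C/D box snoRNAs above the silent level, 1 without the dimmest 30% of genes and 0 to 3 when an array was left out. Between the guides 2 were called with the replicate block (SNORD116-1 and SNORD116-14), 1 with that centring and 0 with any array left out. The labels do not state whether the replicate numbers pair the arrays. For the 13 copies above the silent level, replicate 3 was lowest of its group for 8 with sgRNA-A, 9 with sgRNA-B and 11 in control cells. The block changed no other count of calls by over 1.5 times. With the block, limma's adjusted p with sgRNA-A was 0.00658 for SNORD116-1 and 0.0573 for PBRM1.

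Counts over all genes were 522 with sgRNA-A, 735 with sgRNA-B and 25 between the guides. With arrays left out they ran from 223 to 435 with sgRNA-A, 353 to 735 with sgRNA-B and 6 to 30 between the guides. With sgRNA-A the count was 321 in the compared groups alone and 264 with centring on other C/D box snoRNAs above the silent level, and between the guides 122 with that centring. Centring on the median level of all other C/D box snoRNAs left 12, 16 and 4.

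For SNORD116 that centring on the median level gave -0.058 with sgRNA-A, -0.088 with sgRNA-B and 0.033 between the guides (13 copies: -0.12, -0.054 and -0.13), and centring on those above the silent level gave -0.10, -0.055 and -0.042 (between the guides -0.21 for the 13 copies). Without the dimmest genes the medians were -0.20, 0.077 and -0.29. With arrays left out, the median of 19 copies ran from -0.19 to -0.068 with sgRNA-A, -0.039 to 0.07 with sgRNA-B and -0.22 to -0.13 between the guides, and that of 13 copies from -0.30 to -0.076, -0.066 to 0.15 and -0.35 to -0.26. For SNORD115 the 3 comparisons gave 0.061, -0.13 and 0.19 with centring on the median level, 0.018, -0.099 and 0.12 with centring on those above the silent level, and 0.085, 0.098 and -0.013 without the dimmest genes, which left out most copies. With arrays left out they ran from -0.0031 to 0.0064, 0.0013 to 0.014 and -0.012 to 0.0056. Of 1128 values of named members under alternatives, 1089 moved by less than 1 within-group SD, 62 changed sign and the largest change was 0.234.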
